A study of Mus musculus with 4 samples.

Results

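The proteasome genes of newborn mouse heart cells were compared across 4 RNA-seq libraries, 1 per condition. They were all genes whose symbol begins with Psm, a letter from a to g and a number, which gave 49 of the 27207 genes in the files. Of these, 32 encode constitutive core subunits, 5 encode interferon-inducible subunits, 7 encode assembly factors and 3 encode other regulators. The remaining members were Psmb11, the thymus-specific catalytic subunit, and Psmc3ip, a meiotic recombination cofactor that shares the symbol's beginning but is no subunit. Reads were assigned per transcript record, and 45 of the members had 1 record while Psmd2, Psmd10, Psme2 and Psmg4 had 2, whose reads were summed.

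All libraries came from cardiomyocytes of CD1 mice at postnatal day 1, the contracting cells of the newborn heart, seeded in dishes and collected 72 h after transfection. The cells had been transfected with 1 of 2 human microRNA mimics (hsa-miR-590-3p in 1 library and hsa-miR-199a-3p in another), with the control mimic cel-miR-67 (a microRNA of Caenorhabditis elegans), each at 50 nM in a reverse transfection with Lipofectamine RNAiMAX, or were mock transfected. Each microRNA library was set against both controls. The labels do not give the number of mice behind a library or what the mock cells received. The libraries held 34452240 (hsa-miR-590-3p), 38745528 (hsa-miR-199a-3p), 34255689 (cel-miR-67) and 31638930 (mock) reads. CPM below are read counts scaled to library size with TMM factors, and the 13484 genes that averaged 1 CPM or more were compared. With 1 library per condition no test was possible, and no difference below could be checked against a replicate. The 95% intervals printed are exact Clopper-Pearson intervals of counting error alone, which treat each read as a separate molecule although no molecular identifiers are described.

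The labelled cell type was matched by its markers, which summed to 42233 (hsa-miR-590-3p), 39675 (hsa-miR-199a-3p), 56077 (cel-miR-67) and 61570 CPM (mock) over 10 cardiomyocyte genes. Markers of fibroblasts were also abundant, at 11252, 11696, 9944 and 10433 CPM in the same order. Single markers did not all follow that sum. With hsa-miR-199a-3p, 3 of the 8 were above both controls and 5 below, against 40.2% and 41.9% of all genes compared. All 10 cardiomyocyte markers were below both controls under each microRNA. Of all genes compared, 36.5% were below both with hsa-miR-590-3p, while 41.9% were so with hsa-miR-199a-3p. In such bulk libraries fewer cells of a type and less RNA per cell cannot be told apart.

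The 26S proteasome degrades ubiquitin-tagged proteins. Its 20S core is a barrel of alpha and beta rings, in which Psmb5, Psmb6 and Psmb7 carry the catalytic sites. The 19S cap binds, unfolds and deubiquitinates substrates with a ring of ATPases (Psmc genes) and a set of non-ATPase subunits (Psmd genes). Interferon induces Psmb8, Psmb9 and Psmb10, which replace Psmb5, Psmb6 and Psmb7 in newly built immunoproteasomes, and the activator subunits Psme1 and Psme2, which favour the peptides presented by class I molecules. In heart muscle, proteasomes clear damaged contractile proteins.

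Promoter windows of Psmb8 and Psmb9, of Psmb5 and Psmb6, which they replace, and of Psme1 are shown here as examples of windows with a match. Each window runs from 250 bases before to 50 bases after the annotated start (RefSeq, build GRCm38.p6), written 5′ to 3′ on the strand of the gene. Capitals mark matches, on either strand, to GAAA and GAAA with any 2 bases between them (an interferon regulatory factor element), TTCNNNGAA (a STAT element), TGACNNNGC (an antioxidant response element) or CCAAT. The windows are chr17:34197945-34198244 (plus strand) for Psmb8, chr17:34187281-34187580 (minus) for Psmb9, chr14:55578244-55578543 (plus) for Psme1, chr14:54617946-54618245 (minus) for Psmb5 and chr11:70525107-70525406 (plus) for Psmb6.
Psmb8: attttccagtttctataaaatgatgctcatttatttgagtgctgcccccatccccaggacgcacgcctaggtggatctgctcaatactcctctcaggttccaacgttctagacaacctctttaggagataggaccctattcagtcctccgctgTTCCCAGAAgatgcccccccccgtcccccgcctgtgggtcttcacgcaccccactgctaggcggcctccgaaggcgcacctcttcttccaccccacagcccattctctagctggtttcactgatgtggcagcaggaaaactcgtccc
Psmb9: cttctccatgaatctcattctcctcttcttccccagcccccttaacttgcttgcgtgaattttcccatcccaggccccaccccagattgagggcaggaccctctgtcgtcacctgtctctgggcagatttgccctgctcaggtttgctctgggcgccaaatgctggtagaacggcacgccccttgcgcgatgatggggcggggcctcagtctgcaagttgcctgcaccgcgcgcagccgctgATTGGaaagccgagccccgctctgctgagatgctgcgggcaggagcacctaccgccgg
Psme1: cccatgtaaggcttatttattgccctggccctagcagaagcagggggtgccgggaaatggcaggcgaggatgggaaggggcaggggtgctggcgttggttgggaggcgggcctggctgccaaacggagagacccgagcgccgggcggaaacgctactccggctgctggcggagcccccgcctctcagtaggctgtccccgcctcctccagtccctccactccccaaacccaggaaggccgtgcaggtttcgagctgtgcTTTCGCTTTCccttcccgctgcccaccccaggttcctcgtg
Psmb5: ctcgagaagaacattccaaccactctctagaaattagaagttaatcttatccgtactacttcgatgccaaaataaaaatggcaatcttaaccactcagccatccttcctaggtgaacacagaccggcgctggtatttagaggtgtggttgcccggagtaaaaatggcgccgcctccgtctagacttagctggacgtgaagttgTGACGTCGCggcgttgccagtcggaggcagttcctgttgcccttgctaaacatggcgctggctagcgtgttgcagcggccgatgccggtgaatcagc
Psmb6: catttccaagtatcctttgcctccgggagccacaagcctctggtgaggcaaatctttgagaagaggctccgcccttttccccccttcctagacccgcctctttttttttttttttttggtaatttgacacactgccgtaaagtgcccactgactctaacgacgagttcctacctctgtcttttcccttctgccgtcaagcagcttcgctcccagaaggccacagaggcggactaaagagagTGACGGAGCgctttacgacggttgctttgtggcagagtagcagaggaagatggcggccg

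Among 41 members with a window, TTCNNNGAA lay in 3 (7.32%), against 8.30% of all 32851 windows, and TGACNNNGC in 6 (14.6%), against 12.4%. The interferon regulatory factor element lay in 5 (12.2%), against 3.44% of all windows, and CCAAT in 15 (36.6%), against 37.4%. Those 5 were Psme1, the only inducible gene among them, Psmb3, Psmd4, Psmd9 and Psmg4. A member counted once if any of its windows matched, whereas the shares of all windows count each window. In the inducible genes, Psmb8 held TTCNNNGAA 97 bases upstream, Psme1 held the interferon regulatory factor element on the minus strand, and Psmb9 held CCAAT in reverse. Psmb10 and Psme2 held none of these letters. Psmb5 and Psmb6 each held TGACNNNGC, 47 and 9 bases upstream. A match is a run of letters and not a measured binding site.

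The members that differed most between the controls were the inducible genes Psmb8 and Psmb9. All 5 inducible genes were lower with cel-miR-67 than with mock, with a median log2 ratio of -0.48, against -0.11 for the core subunits and 0.00 for all genes compared. Psmb8, the inducible chymotrypsin-like subunit, had 7.47 CPM with hsa-miR-590-3p, 10.03 CPM with hsa-miR-199a-3p, 2.15 CPM with cel-miR-67 and 7.14 CPM in mock. The cel-miR-67 library stood apart as the low one, and its ratio to mock was 0.303 (95% interval 0.228 to 0.395). Those levels rest on 264, 404, 72 and 217 reads in the same order.

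Psmb9, which takes the place of Psmb6, was the rarest. It had 1.27 CPM with hsa-miR-590-3p, 3.20 CPM with hsa-miR-199a-3p, 0.658 CPM with cel-miR-67 and 1.55 CPM in mock, from 45, 129, 22 and 47 reads. Its ratio of cel-miR-67 to mock was 0.431 (0.244 to 0.720), so Psmb8 and Psmb9 were the 2 members at least 2-fold lower in the cel-miR-67 library. Over all genes compared, 1.33% were at least 2-fold lower with cel-miR-67 than in mock and 0.645% at least 2-fold higher.

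The other 3 inducible genes were more abundant and varied less. Psmb10, the inducible trypsin-like subunit, had 41.2 CPM with hsa-miR-590-3p, 46.3 CPM with hsa-miR-199a-3p, 34.0 CPM with cel-miR-67 and 41.6 CPM in mock. Psme1 had 84.1, 106, 75.6 and 94.5 CPM in the same order. For both genes the cel-miR-67 value was the lowest, at 0.818 (0.754 to 0.887) and 0.8001 (0.758 to 0.844) of mock. Psme2, the partner of Psme1 in the PA28 ring, had 72.6 CPM with hsa-miR-590-3p, 77.7 CPM with hsa-miR-199a-3p, 58.7 CPM with cel-miR-67 and 82.1 CPM in mock, a ratio of cel-miR-67 to mock of 0.716 (0.674 to 0.759). Only 10.8% of the Psme2 reads were placed uniquely, and those alone gave a log2 ratio of 0.05. The lower Psme2 value with cel-miR-67 thus rests on reads shared between records. Psme2 has 2 records, and a read that fits both counts as shared although it belongs to the gene. Which of the shared reads also fit other genes is not known. From uniquely placed reads alone, 4 of the 5 inducible genes were lower with cel-miR-67, with a median of -0.30.

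**Figure D1:**
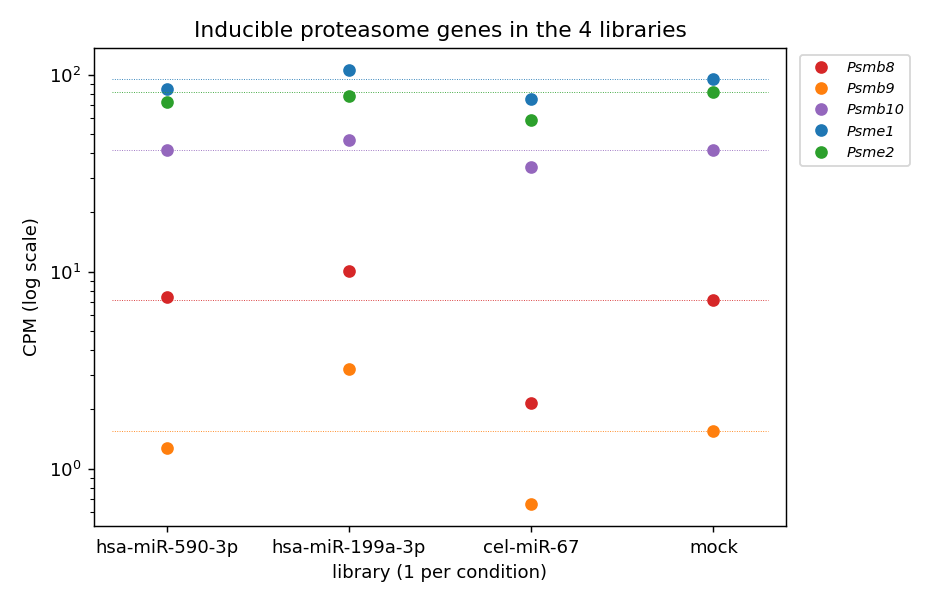
Level of the 5 inducible proteasome genes in CPM (log scale) in each library, 1 library per condition; points are libraries and each dotted line is the mock level of 1 gene. The cel-miR-67 point is the lowest for every gene, and Psmb8 lies at 2.15 CPM there against 7.14 CPM in mock.

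The microRNA ratios of these genes differed with the control they were set against. Against cel-miR-67, all 5 were higher with hsa-miR-590-3p (median log2 0.31) and all 5 were higher with hsa-miR-199a-3p (0.49), against 49.9% and 49.5% of all genes. Against mock, the medians were -0.17 with hsa-miR-590-3p, where 1 was higher and 4 lower, and 0.17 with hsa-miR-199a-3p, where 4 were higher and Psme2 was at -0.08. That Psme2 value was 0.03 when scaled by total counts and 0.17 from uniquely placed reads. Of all genes, 50.9% were lower than mock with hsa-miR-590-3p and 48.8% higher with hsa-miR-199a-3p. From uniquely placed reads alone the hsa-miR-590-3p median against mock was 0.0099. Both microRNAs are set against the same controls, so their ratios are not independent of each other.

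With hsa-miR-590-3p, Psmb8 was 3.45 times cel-miR-67 (2.66 to 4.57) and 1.05 times mock (0.871 to 1.26), an interval that includes no difference from mock. With hsa-miR-199a-3p, it was 4.64 times cel-miR-67 (3.62 to 6.08) and 1.40 times mock (1.19 to 1.66). Psmb9 with hsa-miR-199a-3p was 4.79 times cel-miR-67 (3.08 to 8.04) and 2.06 times mock (1.47 to 2.96). It was thus the only member at least 2-fold higher than both controls under either microRNA. Of all genes compared, 2.4% met that criterion with hsa-miR-199a-3p. The call stood on 129 reads and was lost with a prior count of 5, where the log2 ratio to mock was 0.99.

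Set directly against hsa-miR-199a-3p, hsa-miR-590-3p gave lower values for all 5 inducible genes, with a median log2 ratio of -0.33. Of all genes compared, 49.7% were lower, with a median of 0.00. Psmb9 differed most, at 0.400 of the hsa-miR-199a-3p level (0.277 to 0.562). The share of all genes at least 2-fold lower in that comparison was 1.87%.

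Levels of different genes were compared per kilobase, on the authors' RPKM scale, and within 1 library such a ratio does not depend on scaling between libraries. Psmb8 reached 11.9% of Psmb5 with hsa-miR-590-3p (interval 10.4 to 13.5), 12.7% with hsa-miR-199a-3p (11.4 to 14.1), 2.81% with cel-miR-67 (2.19 to 3.55) and 9.27% in mock (8.01 to 10.7). These are total reads, and 100% of the Psmb8 reads but 39.8% of the Psmb5 reads were placed uniquely. The level of this pair therefore depends on how shared reads are counted, which the intervals do not cover. Psmb9 reached 1.62% of Psmb6 with hsa-miR-590-3p (1.18 to 2.17), 3.401% with hsa-miR-199a-3p (2.83 to 4.05), 0.852% with cel-miR-67 (0.533 to 1.29) and 1.89% in mock (1.38 to 2.52). In both pairs the cel-miR-67 interval lay below that of every other library except for the overlap with hsa-miR-590-3p in the second pair.

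Psmb10 reached 22.6% of Psmb7 with hsa-miR-590-3p (21.3 to 24.0), 22.2% with hsa-miR-199a-3p (21.1 to 23.4), 17.7% with cel-miR-67 (16.6 to 18.9) and 19.3% in mock (18.2 to 20.6). Here both microRNA libraries lay above both controls. Psme1 was more abundant per kilobase than Psme3, the nuclear activator of the same family, at 267% with hsa-miR-590-3p, 259% with hsa-miR-199a-3p, 220% with cel-miR-67 and 284% in mock. Psme2 stood at 249%, 205%, 184% and 266% of Psme3 in the same order, with 10.8% of the Psme2 and 100% of the Psme3 reads placed uniquely. By total reads, constitutive catalytic subunits thus exceeded their inducible counterparts in every library, while the interferon-inducible activator genes exceeded Psme3.

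**Figure D2:**
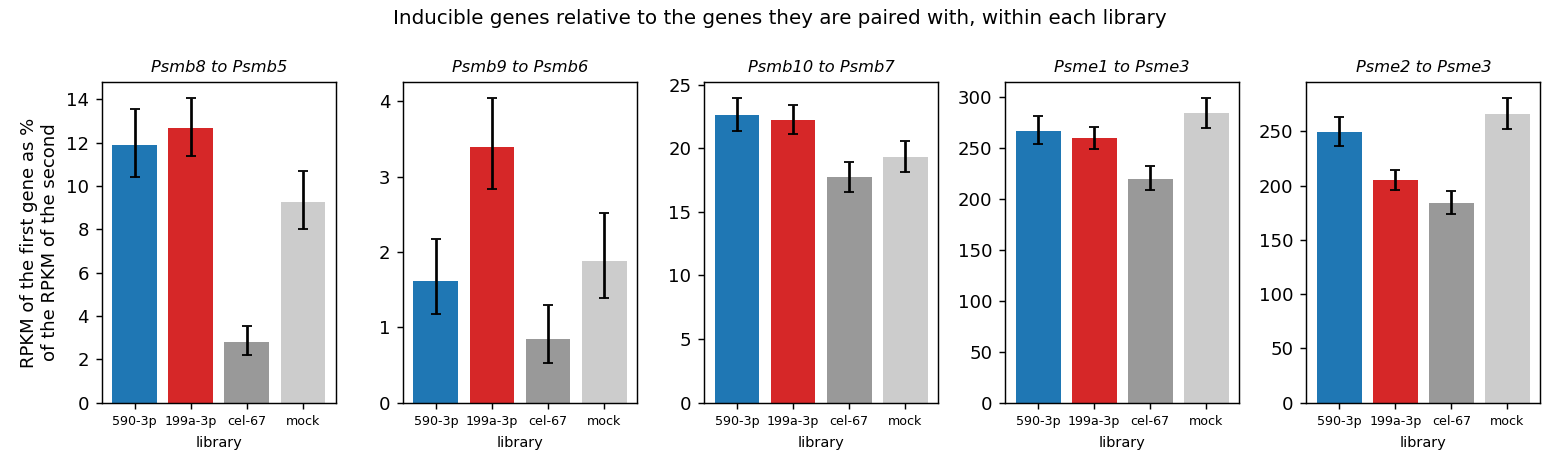
RPKM of each inducible gene as a percentage of the gene it is paired with (Psmb5, Psmb6, Psmb7 or Psme3) within each library (cel-67 stands for cel-miR-67); bars are libraries, 1 per condition, and error bars are 95% intervals of counting error. Psmb8 is 2.81% of Psmb5 with cel-miR-67 and 9.27% to 12.7% in the other libraries, by total reads.

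Constitutive core subunits were abundant and close to each other. The 14 compared subunits of the 20S core had median levels of 102 (hsa-miR-590-3p), 113 (hsa-miR-199a-3p), 96.1 (cel-miR-67) and 106 RPKM (mock). The highest of them was 2.79, 2.94, 2.58 and 2.69 times the lowest in these libraries. The 17 subunits of the 19S cap had medians of 75.2, 81.5, 71.5 and 78.2 RPKM in the same order. By contrast, in mock Psmb9 had 1.84 RPKM, Psmb8 5.61, Psmb10 31.5, Psme2 87.1 and Psme1 92.9. Psma8, the alpha subunit of the testis, had 15, 21, 14 and 8 reads and Psmb11 48, 34, 24 and 25 reads in the same library order, and both lay below a mean of 1 CPM.

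With hsa-miR-590-3p, core subunits lay slightly below both controls. Of 31 core subunits compared, 22 were lower than both and 1, Psmd3, was higher than both, against 36.5% lower and 35.6% higher of all genes compared. Among 3844 genes of 50 to 400 CPM, the range of these subunits, 40.3% were lower than both and 32% higher. That range was chosen after the values were seen. The median log2 ratio was -0.065 against cel-miR-67 and -0.18 against mock, where 30 of 31 were lower, against 50.9% of all genes. No core subunit differed from both controls by a ratio of 5 to 4 or more, which 7.43% of all genes did on the higher side and 5.36% on the lower. A 2-fold difference from both was met by none of the 47 members compared, against 0.349% of all genes higher and 0.23% lower. Scaled by total counts, or on the authors' RPKM scale, 13 of 31 were lower than both and 5 higher, and the median against cel-miR-67 was 0.0070. That scaling raised the median of all genes by 0.07 against cel-miR-67 and 0.10 against mock, and under it 24.0% of all genes were lower than both controls and 49.0% higher. Relative to the median of all genes, the core median was -0.064 against cel-miR-67 and -0.17 against mock under either scaling. By structure, 5 of 7 alpha subunits, 5 of 7 beta subunits, 6 of 6 ATPases and 6 of 11 non-ATPase cap subunits were lower than both controls.

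Psmb5, the chymotrypsin-like site, had the lowest ratios of the beta ring with hsa-miR-590-3p. It had 44.8 CPM with hsa-miR-590-3p, 56.5 CPM with hsa-miR-199a-3p, 54.7 CPM with cel-miR-67 and 54.9 CPM in mock. The hsa-miR-590-3p library was the low one, at a log2 ratio of -0.29 to each control, with 39.8% of the Psmb5 reads placed uniquely. Psmb6, the caspase-like site, had 101, 121, 99.7 and 105 CPM in the same order. Psmb7, the trypsin-like site, had 139 CPM with hsa-miR-590-3p, 159 CPM with hsa-miR-199a-3p, 147 CPM with cel-miR-67 and 164 CPM in mock. With hsa-miR-590-3p their log2 ratios were 0.02 (Psmb6) and -0.08 (Psmb7) against cel-miR-67 and -0.06 and -0.24 against mock.

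With hsa-miR-199a-3p, the beta ring and the ATPase ring lay above the controls while the alpha ring and the other cap subunits were mixed. Of the 7 constitutive beta subunits, 6 were higher than both controls and none lower (medians 0.22 against cel-miR-67 and 0.18 against mock). Of the 6 ATPases, 5 were higher than both and Psmc6 lower (medians 0.22 and 0.12). Of 7 alpha subunits, 2 were higher than both and 2 lower, and of 11 non-ATPase cap subunits 2 were higher and 5 lower. Over all genes compared, 40.2% were higher than both and 41.9% lower, and within 50 to 400 CPM 37.6% and 46.5%. Scaled by total counts, 7 of 7 beta subunits and 5 of 6 ATPases were higher than both, when 50.7% of all genes were.

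Psmb3, a structural beta subunit, had 82.4 CPM with hsa-miR-590-3p, 115 CPM with hsa-miR-199a-3p, 84.1 CPM with cel-miR-67 and 88.0 CPM in mock. The hsa-miR-199a-3p value stood above the other 3, at 1.37 times cel-miR-67 (1.30 to 1.43), and Psmb3 was the only core subunit above both controls by a ratio of 5 to 4 or more. In all, 15.1% of genes met that level. Psmb4, the most abundant beta subunit per kilobase, followed the same order of libraries with 135, 181, 145 and 146 CPM. Psmb2 had 74.6 CPM with hsa-miR-590-3p, 85.0 CPM with hsa-miR-199a-3p, 73.2 CPM with cel-miR-67 and 74.9 CPM in mock, the same high library at a smaller difference.

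Among the ATPases, Psmc5 had 111 CPM with hsa-miR-590-3p, 152 CPM with hsa-miR-199a-3p, 118 CPM with cel-miR-67 and 133 CPM in mock, log2 ratios of 0.37 and 0.20 with hsa-miR-199a-3p. Psmc3, the most abundant ATPase per kilobase, had 200 CPM with hsa-miR-590-3p, 254 with hsa-miR-199a-3p, 211 with cel-miR-67 and 224 CPM in mock. Psmc1 had 141, 187, 158 and 165 CPM in the same order. In all 3 the hsa-miR-199a-3p library was highest and the hsa-miR-590-3p library lowest. Psmc2 shared that order of extremes, with 109 CPM with hsa-miR-590-3p, 140 with hsa-miR-199a-3p, 122 with cel-miR-67 and 138 CPM in mock. Psmc6 did not, with 105 CPM with hsa-miR-590-3p, 106 with hsa-miR-199a-3p, 110 with cel-miR-67 and 127 CPM in mock.

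In the alpha ring, which gates the entrance to the core, Psma5 had the highest and Psma6 the lowest ratio to cel-miR-67 with hsa-miR-199a-3p. Psma5 had 79.8 CPM with hsa-miR-590-3p, 92.4 CPM with hsa-miR-199a-3p, 71.9 CPM with cel-miR-67 and 82.7 CPM in mock. Psma6 had 104, 91.6, 100 and 121 CPM in the same order, so the library that was highest for Psma5 was lowest for Psma6. Psma2 had 96.6 CPM with hsa-miR-590-3p, 113 CPM with hsa-miR-199a-3p, 105 CPM with cel-miR-67 and 117 CPM in mock. Psma7, the most abundant per kilobase, had about equal levels under the microRNAs, 103 CPM with each, against 107 CPM with cel-miR-67 and 119 CPM in mock.

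Of the non-ATPase cap subunits, Psmd14, the deubiquitinase of the cap, was the core subunit that differed most between the controls. It had 75.9 CPM with hsa-miR-590-3p, 79.7 CPM with hsa-miR-199a-3p, 59.0 CPM with cel-miR-67 and 86.6 CPM in mock, a ratio of cel-miR-67 to mock of 0.681 (0.642 to 0.722). Both microRNA libraries lay between the controls. Psmd8, the most abundant of this group per kilobase, had 178 CPM with hsa-miR-590-3p, 169 with hsa-miR-199a-3p, 212 with cel-miR-67 and 203 CPM in mock, lower than both controls under both microRNAs. Psmd2, a scaffold subunit that docks ubiquitin receptors, had 354, 331, 371 and 398 CPM in the same order, but 2.26% of its reads were placed uniquely. The core subunits not given singly (Psma1, Psma3, Psma4, Psmb1, Psmc4, Psmd1, Psmd3, Psmd4, Psmd6, Psmd7, Psmd11, Psmd12 and Psmd13) had log2 ratios to either control between -0.32 (Psmd13, hsa-miR-590-3p against mock) and 0.30 (Psmd4, hsa-miR-199a-3p against cel-miR-67).

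**Figure D3:**
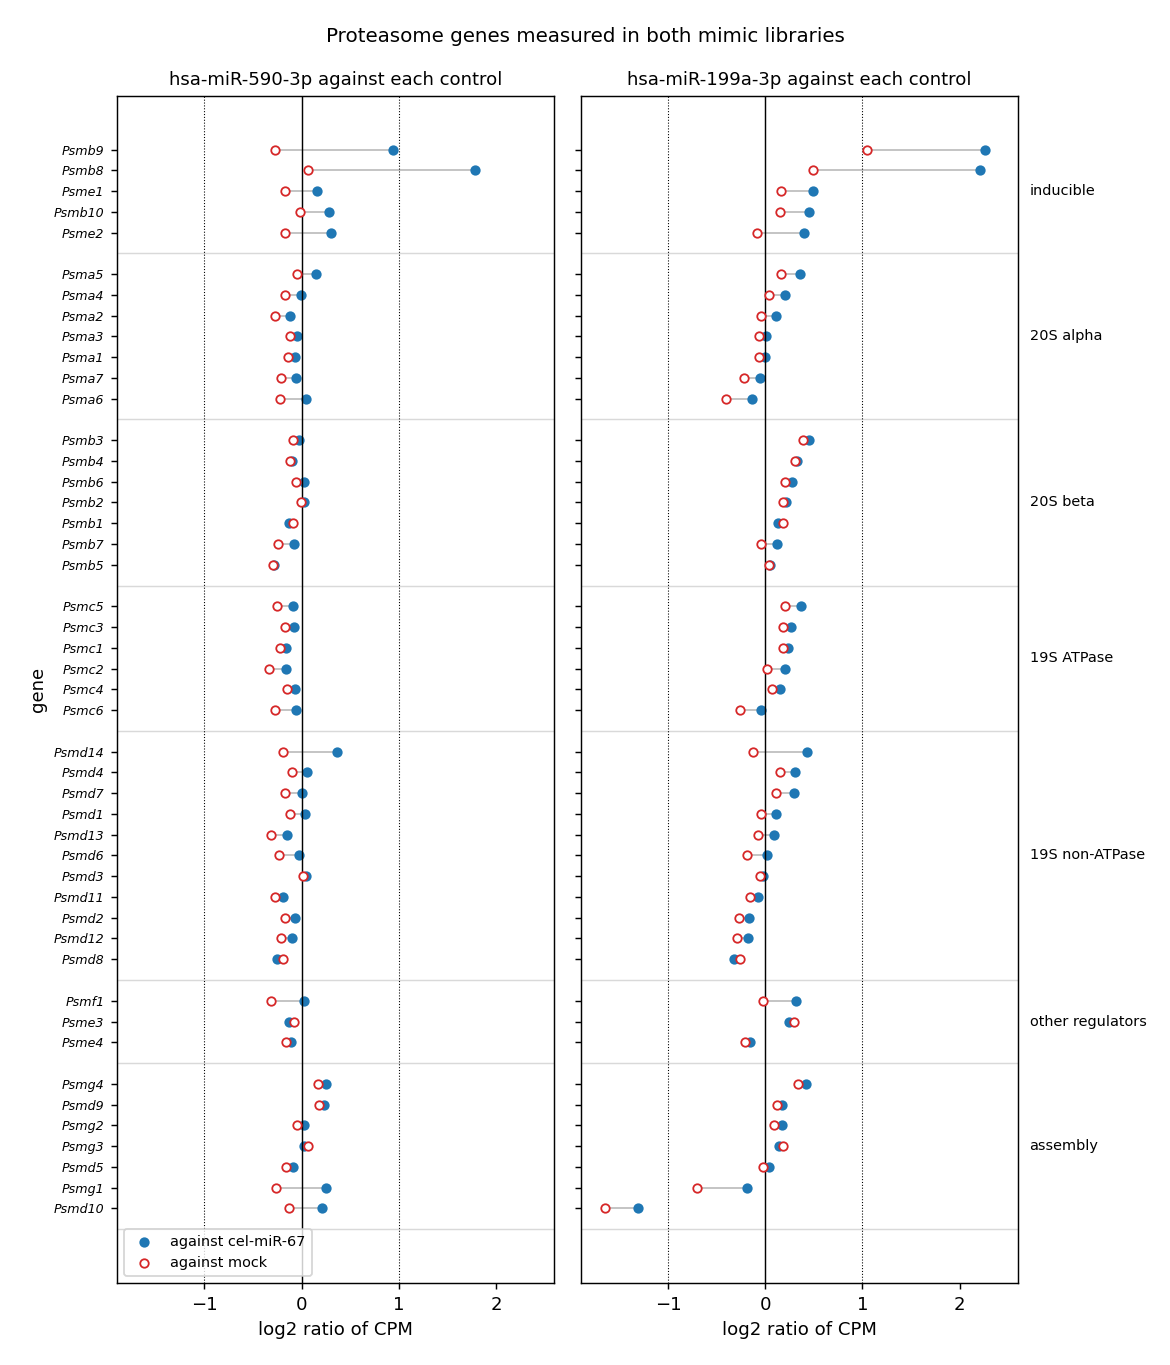
Log2 ratio of CPM of each of 46 compared subunits, regulators and assembly factors under hsa-miR-590-3p (left) and hsa-miR-199a-3p (right), filled points against cel-miR-67 and open points against mock; dotted lines mark 2-fold. Core subunits lie near 0 in both panels, Psmb8 and Psmb9 lie far right against cel-miR-67, and Psmd10 lies beyond 2-fold on the lower side with hsa-miR-199a-3p.

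Set directly against hsa-miR-199a-3p, hsa-miR-590-3p gave lower values for 25 of 31 core subunits, with a median log2 ratio of -0.21, against 49.7% of all genes compared and a median of 0.00. Within 50 to 400 CPM, 48.2% of genes were lower. All 7 beta subunits and all 6 ATPases were lower with hsa-miR-590-3p (medians -0.27 and -0.36), and 7 core subunits were lower by a ratio of 5 to 4 or more, against 18.6% of all genes. Psmb3 stood at 0.718 of the hsa-miR-199a-3p level (0.685 to 0.752). Scaled by total counts, 26 of 31 were lower with a median of -0.23. That scaling moved the median of all genes by only -0.019 in this comparison, so it could hardly change the result.

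Between the controls, cel-miR-67 gave lower values than mock for 29 of 31 core subunits, all but Psmb1 and Psmd8, and for 43 of 47 members. The share of all genes lower was 49.7%, and 51.5% within 50 to 400 CPM. The core median of -0.11 lay between the hsa-miR-590-3p medians against the 2 controls, and 1 core subunit, Psmd14, was lower by a ratio of 5 to 4 or more, as were 11% of all genes.

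The assembly factors held the member with the lowest microRNA ratios. Psmd10 (gankyrin), a chaperone of the ATPase ring that also binds the retinoblastoma protein and Mdm2, had 15.8 CPM with hsa-miR-590-3p, 5.51 CPM with hsa-miR-199a-3p, 13.7 CPM with cel-miR-67 and 17.3 CPM in mock. These levels rest on 559, 222, 459 and 527 reads, and the hsa-miR-199a-3p library stood apart from the other 3. With hsa-miR-199a-3p it was 0.402 of cel-miR-67 (0.341 to 0.473) and 0.318 of mock (0.271 to 0.373), the only member at least 2-fold lower than both controls under either microRNA. Of all genes compared, 2.34% met that criterion. Of its reads 14.5% were placed uniquely, and those alone gave log2 ratios of -1.41 and -1.85. With hsa-miR-590-3p it was 2.86 times the hsa-miR-199a-3p level (2.45 to 3.37), where 2.7% of all genes were at least 2-fold higher.

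The mature mouse microRNA that corresponds in name to the hsa-miR-199a-3p mimic is shown for reference to this difference (RefSeq, build GRCm38.p6), with its seed, bases 2 to 8, in capitals. No target site in Psmd10 was searched.
mmu-miR-199a-3p: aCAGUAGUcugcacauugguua

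The other 6 assembly factors varied less. Psmg1, which builds the alpha ring, had 17.6 CPM with hsa-miR-590-3p, 13.0 CPM with hsa-miR-199a-3p, 14.8 CPM with cel-miR-67 and 21.1 CPM in mock, lowest with hsa-miR-199a-3p and highest in mock. Psmg4, an alpha-ring chaperone, had 5.80, 6.53, 4.87 and 5.17 CPM in the same order, with 33.2% of its reads placed uniquely. The chaperones of the ATPase ring Psmd5 and Psmd9 had log2 ratios between -0.16 and 0.23 under both microRNAs. Psmd9 was higher than both controls under each microRNA, at 20.03 CPM with hsa-miR-590-3p, 19.2 CPM with hsa-miR-199a-3p, 17.04 CPM with cel-miR-67 and 17.7 CPM in mock. The most abundant factor per kilobase, Psmd5, had 39.9, 43.9, 42.5 and 44.7 CPM in the same order. Psmg2 and Psmg3, also alpha-ring chaperones, had log2 ratios between -0.05 and 0.19.

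Of the other regulators, Psme3 had 84.6 CPM with hsa-miR-590-3p, 110 CPM with hsa-miR-199a-3p, 92.3 CPM with cel-miR-67 and 89.3 CPM in mock. It was thus high in the same library as the beta subunits. Psme4, a large activator that acts on histones, had 252, 243, 271 and 282 CPM in the same order and was lower than both controls under both microRNAs. Psmf1, an inhibitor of the 20S core in vitro, had 23.1 CPM with hsa-miR-590-3p, 28.3 CPM with hsa-miR-199a-3p, 22.8 CPM with cel-miR-67 and 28.8 CPM in mock, which sets hsa-miR-199a-3p beside mock and hsa-miR-590-3p beside cel-miR-67. Psmc3ip had 8.26, 8.62, 6.55 and 6.78 CPM in the same order, higher than both controls under both microRNAs.

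Interferon-response genes differed between the controls in the same direction as the inducible subunits. All 19 of a list of such genes were lower with cel-miR-67 than in mock (median log2 -1.46), 12 of them at least 2-fold, against 49.7% and 1.33% of all genes. The 12 were Bst2, Cxcl10, Gbp3, Ifit1, Ifit3, Irf7, Isg15, Mx1, Mx2, Oasl2, Rsad2 and Usp18, with log2 ratios from -2.07 (Rsad2) to -1.22 (Bst2). Bst2 (tetherin), the most abundant, had 156 CPM with hsa-miR-590-3p, 136 CPM with hsa-miR-199a-3p, 77.1 CPM with cel-miR-67 and 180 CPM in mock. With hsa-miR-590-3p, 14 of 19 were lower than mock (median -0.21) and none by 2-fold, against 50.9% and 0.682% of all genes. With hsa-miR-199a-3p, 17 of 19 were lower than mock (median -0.79), against 51.2% of all genes. At least 2-fold lower were 6, against 3.74% of all genes, namely Ifit1 (-1.85), Cxcl10 (-1.81), Mx1 (-1.74), Mx2 (-1.67), Ifit3 (-1.60) and Rsad2 (-1.01). With hsa-miR-590-3p, 5 of 19 were at least 2-fold higher than with hsa-miR-199a-3p, against 2.7% of all genes, namely Cxcl10, Mx1, Ifit3, Ifit1 and Mx2, with log2 ratios from 1.23 (Mx2) to 1.92 (Cxcl10). Relative to mock, the interferon list and 4 of the 5 inducible subunits therefore differed in direction with hsa-miR-199a-3p. Relative to cel-miR-67 they did not. There, 16 of the 19 interferon-response genes were higher with hsa-miR-199a-3p and 3 lower (median 0.54), against 49.5% of all genes higher. All 5 inducible subunits were higher in that comparison (median 0.49). With hsa-miR-590-3p, all 19 and all 5 were higher than with cel-miR-67, against 49.9% of all genes.

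Genes of class I antigen processing, which load proteasome-made peptides, were lower with cel-miR-67 than in mock in 10 of 12 (median -0.61). At least 2-fold lower were Nlrc5 (-1.11), the transactivator of class I genes, and Canx (-1.18), a chaperone with 1.16% of its reads placed uniquely. The shares of all genes were 49.7% lower and 1.33% at least 2-fold lower. With hsa-miR-590-3p, 11 of 12 were lower than mock, against 50.9% of all genes, and their median was -0.068 relative to that of all genes whether scaled by TMM or by total counts. The median itself was -0.073 by TMM, and total counts raised that of all genes by 0.095, so the count of 11 depends on the scaling. Against cel-miR-67, 10 of 12 were higher with hsa-miR-590-3p (median 0.49) and 9 with hsa-miR-199a-3p (0.82), against 49.9% and 49.5% of all genes. With hsa-miR-199a-3p, 7 were higher than mock (median 0.13), against 48.8% of all genes, including the peptide transporter gene Tap1 (0.56, 6.41% unique reads), Tapbpl (0.56), H2-K1 (0.43) and Nlrc5 (0.39), while the peptide-trimming enzyme Erap1 was at -1.10, Canx at -0.41 and B2m, the class I light chain, at -0.33. Erap1 was the 1 gene of the list at least 2-fold apart between the microRNAs, with 44.5 CPM with hsa-miR-590-3p and 22.1 CPM with hsa-miR-199a-3p. Calr, the most abundant per kilobase, had 812 CPM with hsa-miR-590-3p, 835 with hsa-miR-199a-3p, 957 with cel-miR-67 and 842 CPM in mock.

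Markers of leukocytes and macrophages, cells that carry immunoproteasomes, summed to 7.89 CPM with hsa-miR-590-3p, 9.26 CPM with hsa-miR-199a-3p, 9.63 CPM with cel-miR-67 and 23.2 CPM in mock. All 12 were in the files, 4 of them above a mean of 1 CPM and none at 0 in any library. The markers C1qa, C1qb, C1qc and Ptprc lay below 1 CPM in every library, whereas Lyz2 reached 11.5 CPM in mock. All 4 compared markers were lower with cel-miR-67 than in mock, against 49.7% of all genes. At least 2-fold lower were 2 of them, Lyz2 (log2 -1.37) and Cd68 (-1.15), against 1.33% of all genes. The marker sum was lower with cel-miR-67 than in mock and similar in the cel-miR-67 and hsa-miR-199a-3p libraries. Single markers went both ways between those libraries. Of the 4 compared, 1 (Cd68) was higher with hsa-miR-199a-3p and 3 were lower, against 49.5% of all genes higher. Endothelial markers summed to 222 CPM with hsa-miR-590-3p, 197 CPM with hsa-miR-199a-3p, 192 CPM with cel-miR-67 and 258 CPM in mock, with none of the 7 at 0 in any library. All 7 were lower with cel-miR-67 than in mock (median log2 -0.38), against 49.7% of all genes. All 7 were also higher with hsa-miR-590-3p than with cel-miR-67, against 49.9% of all genes. The part of these cell types in the values of inducible genes was not tested.

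**Figure D4:**
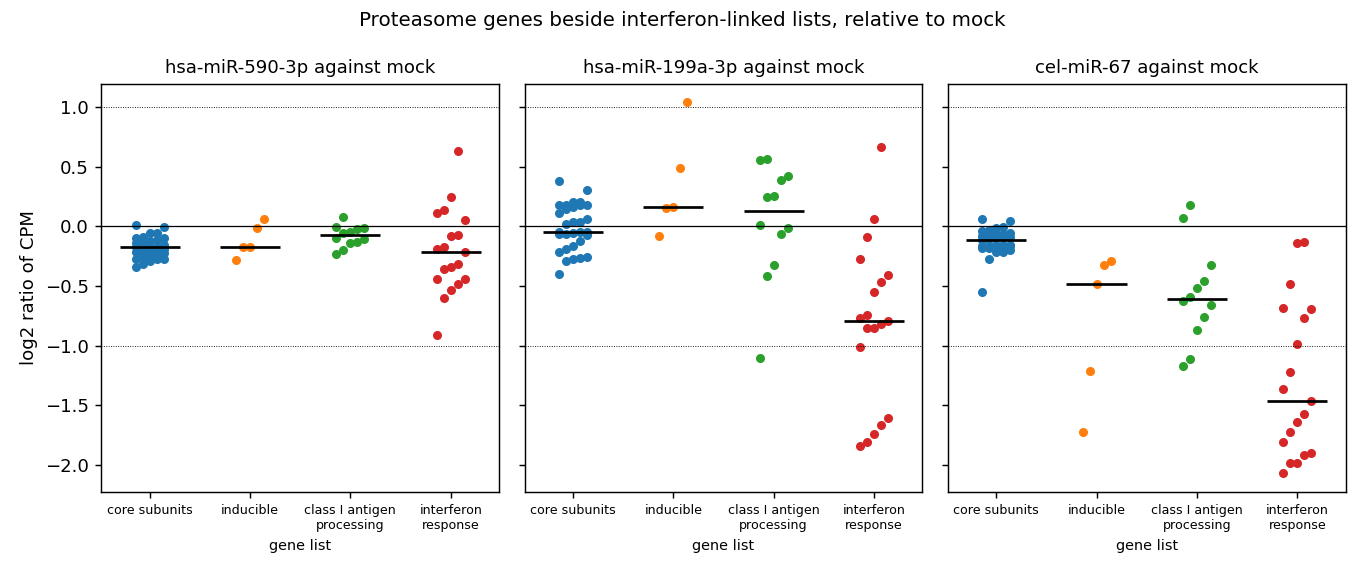
Log2 ratio of CPM to mock for each gene of 4 lists (31 core subunits, 5 inducible subunits, 12 class I antigen-processing genes and 19 interferon-response genes) with hsa-miR-590-3p, hsa-miR-199a-3p and cel-miR-67; points are genes, bars are medians and dotted lines mark 2-fold. Interferon-response genes lie low with cel-miR-67 (median -1.46) and with hsa-miR-199a-3p (-0.79), where inducible subunits have a median of 0.17.

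Of 15 partners in the files, such as receptors, shuttles and assembly factors outside the symbol rule, all 15 were lower with cel-miR-67 than in mock (median -0.10), against 49.7% of all genes, and 11 of 15 were from uniquely placed reads alone. With hsa-miR-590-3p, 2 were higher and 7 lower than both controls, against 35.6% and 36.5% of all genes. With hsa-miR-199a-3p, 8 were higher and 6 lower than both, against 40.2% and 41.9%. Scaled by total counts, the hsa-miR-590-3p split was 8 higher and 3 lower, when 49.0% and 24.0% of all genes were. No partner met the 2-fold criterion against both controls. Of all genes, 0.349% met it on the higher and 0.23% on the lower side with hsa-miR-590-3p, and 2.4% and 2.34% with hsa-miR-199a-3p. Shfm1, a small cap subunit and the most abundant partner per kilobase, had 89.0 CPM with hsa-miR-590-3p, 107 with hsa-miR-199a-3p, 89.3 with cel-miR-67 and 95.6 CPM in mock.

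Nfe2l1 encodes the transcription factor that raises proteasome genes when proteasomes are impaired. It had 429 CPM with hsa-miR-590-3p, 502 with hsa-miR-199a-3p, 470 with cel-miR-67 and 499 CPM in mock, with 1.19% of its reads placed uniquely, and was lowest with hsa-miR-590-3p. Over the 12 genes of that factor, its relative Nfe2l2 and their targets, medians lay between -0.07 and 0.12 under both microRNAs, and none met the 2-fold criterion against both controls. The shares of all genes that met it were 0.349% higher and 0.23% lower with hsa-miR-590-3p, and 2.4% and 2.34% with hsa-miR-199a-3p. Nqo1, a quinone reductase induced by Nfe2l2, had 20.1 CPM with hsa-miR-590-3p, 43.1 CPM with hsa-miR-199a-3p, 19.7 CPM with cel-miR-67 and 24.7 CPM in mock. It was high in the hsa-miR-199a-3p library alone, at log2 ratios of 1.13 to cel-miR-67 and 0.80 to mock, and hsa-miR-590-3p stood at -1.10 to hsa-miR-199a-3p. Nfe2l2 itself was lowest in that library, with 69.7 CPM (hsa-miR-590-3p), 47.7 (hsa-miR-199a-3p), 69.8 (cel-miR-67) and 74.0 CPM (mock). With hsa-miR-199a-3p, 6 of the 12 were higher than both controls and 4 lower, against 40.2% and 41.9% of all genes. Of 11 ubiquitin-pathway genes of striated muscle, none met the 2-fold criterion against both controls, against the same shares of all genes. With hsa-miR-199a-3p, 10 of the 11 were lower than mock, against 51.2% of all genes. Then 6 were lower and 1 higher than both controls, against 41.9% and 40.2%. Fbxo32 had the lowest ratio to cel-miR-67, at 0.459, and stood at 0.527 of mock. Vcp, the segregase that delivers substrates and the most abundant of the 11 per kilobase, had 729, 958, 817 and 970 CPM in the same library order.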

How the data were processed

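RNA sequencing was done on 4 libraries of newborn CD1 mouse cardiomyocytes, grouped by the treatment in the labels. Each deposited file lists 36065 transcript records with, per the file headers, 2 kinds of read count (total and uniquely placed) and the authors' RPKM, which the total count, the record length and the library sum give back to within rounding. CASAVA 1.8 and mm8 are named in the submitters' processing notes with no role. The mapping program was not given in the sources used here. Total reads include reads shared with other records; 37 members had over 90% unique reads.

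Reads were summed by the symbol in the file. Counts were scaled by TMM with edgeR 4.0.16 (R 4.3.3), used for scaling factors only, and log2 ratios of CPM took a prior count of 0.5. With 0 residual degrees of freedom no p-value was computed. A microRNA call needed at least 2-fold (or a ratio of 5 to 4) against cel-miR-67 and mock in the same direction, and other comparisons a single ratio. A count of 0 allows up to 0.0849 (hsa-miR-590-3p), 0.0745 (hsa-miR-199a-3p), 0.0897 (cel-miR-67) and 0.0987 CPM (mock), at 3 reads. Of the reads, 68.6%, 68.7%, 68.2% and 67.6% were placed uniquely in the same order. The procedure was tested on simulated data.

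Members and lists were chosen with earlier results of these data known. Genes given in full were the inducible subunits, the subunits they replace, the other regulators, the most abundant and the extreme member of each structural group against cel-miR-67, and members past 2-fold; in other lists, the most abundant member and members that met the 2-fold call, plus some named after their values were seen. A list of ubiquitin genes is not reported here. Alternatives were total-count scaling, DESeq2 1.42.0 size factors, unique reads, RPKM (pseudocount 0.1), 1 record per gene, current symbols, a prior count of 5, other filters and the mean of the controls. Calculations used Python 3.11.15, numpy 2.4.6, pandas 2.3.3, scipy 1.17.1 and matplotlib 3.10.9. Promoter and microRNA sequences are from RefSeq (GRCm38.p6); 41 of 49 members matched a window. No coordinates of the authors' build were used.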

Additional observations from a re-analysis of the deposited data

How the results depend on the processing

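Across the alternatives, 211 summary values kept within their margins of change, 26 moved and 6 changed sign; of values of single genes, 527 kept within them and 61 moved. The sign changed in 23 of those 588, the largest being Psme2 with cel-miR-67 against mock (-0.48, and 0.048 with uniquely placed reads). Scaling by total counts, and likewise the authors' RPKM, raised the median of all genes by up to 0.11 (log2) against the controls. Under either, with hsa-miR-590-3p 13 core subunits were lower and 5 higher than both controls, and the core medians were 0.0070 (0.0069 on the RPKM scale) against cel-miR-67 and -0.080 against mock. With hsa-miR-199a-3p, 4 were lower than both, core medians were 0.21 against cel-miR-67 and 0.068 against mock, and the inducible median against mock was 0.28. Taking the mean of both controls, core and inducible medians with hsa-miR-199a-3p were 0.045 and 0.32 and 2 members were at least 2-fold higher, and with hsa-miR-590-3p 4 core subunits were higher and the inducible median was 0.12. With uniquely placed reads alone, the inducible medians were 0.0099 for hsa-miR-590-3p against mock and -0.30 for cel-miR-67 against mock. The median log2 change of the 5 pair ratios (Psmb8, Psmb9 and Psmb10 to the subunits they replace, Psme1 and Psme2 to Psme3) was then 0.14 for hsa-miR-590-3p against mock and -0.37 for cel-miR-67 against mock. Core subunits higher than both controls with hsa-miR-590-3p numbered 2 with unique reads, with the record of most reads and without a filter. A minimum mean of 5 CPM, which leaves out Psmb9, gave 1 member at least 2-fold lower with cel-miR-67, 0 at least 2-fold higher with hsa-miR-199a-3p and 0 at least 2-fold lower with hsa-miR-590-3p than with hsa-miR-199a-3p. A prior count of 5 also gave 0 at least 2-fold higher with hsa-miR-199a-3p. For the other moves the cause was not tested. DESeq2 size factors and current symbols moved no summary value.

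No paired analysis was possible because each condition had 1 library, and for the same reason leaving out a replicate was not run. Depth limits Psmb8 and Psmb9, the inducible subunits with the fewest reads. Reads shared between records limit Psmd2, Psmd10, Psme2 and Psmg4, which have 2 records each. They also limit some members with 1 record, with unique shares of 32.5% (Psmg2), 39.8% (Psmb5), 53.5% (Psma5) and 75.9% (Psmb3).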
